A study of Mus musculus with 10 samples.

Results

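Oxidative phosphorylation is carried out in the inner mitochondrial membrane by 5 protein complexes, and most of their subunits are encoded in the nucleus. Of 23454 gene models with a symbol in the table, 84 were nuclear genes named as subunits of these complexes, chosen by symbol alone: 37 of complex I (Nduf), 4 of complex II (Sdh), 8 of complex III (Uqcr), 18 of complex IV (Cox) and 17 of complex V (Atp5). A value of at least 10 normalised reads in at least 3 of 10 livers was reached by 81 of them, all except 3 complex IV genes. The livers came from wild-type C57BL/6 mice, each collected at day 35, with 3 mice in a model of primary biliary cholangitis (PBC), 3 in a model of primary sclerosing cholangitis (PSC) and 4 untreated controls. PBC mice were immunised with 100 µg of 2-octynoic acid coupled to bovine serum albumin at days 0, 14 and 28, in Freund's adjuvant, and received 2 µg of α-galactosylceramide, a glycolipid that activates natural killer T cells, with the first 2 injections. PSC mice were fed 0.089% DDC, a porphyrinogenic compound that injures bile ducts, for 2 weeks up to day 14. After a recovery of 1 week they were fed it for 1 further week. The controls received neither adjuvant nor glycolipid, and neither sex nor age is given in the sources used here. Each liver gave 1 stranded poly(A) RNA library of 38.3 to 95.4 M reads, as recovered from the values.

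Complex I takes electrons from NADH, complex II takes them from succinate as part of the citric acid cycle, and both pass them to ubiquinone. Complex III hands them to cytochrome c, complex IV reduces oxygen with them, and complexes I, III and IV pump protons that complex V, the ATP synthase, uses to make ATP. Hepatocytes are rich in mitochondria, and the genes of this system are transcribed partly under the factors NRF1, GABP and YY1 and the coactivator PGC-1α. Several complex IV subunits and 1 relative of a complex I subunit exist as paralogue pairs, of which one form serves most tissues and the other is known from muscle, lung, testis or hypoxic cells.

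The broadly expressed form of each paralogue pair carried nearly all of the signal in every group. In control livers the highest level per kilobase of transcript was that of Ndufa4, a small protein first assigned to complex I and now placed with complex IV, at 150211 normalised reads per kilobase, followed by Uqcrq, a small complex III subunit, at 133362. Ndufs1, the largest subunit of complex I and part of its NADH-oxidising arm, had 2703 normalised reads per kilobase. Among the pairs, compared per length, Cox7a1 of muscle reached 2.41% ± 0.57 of Cox7a2 in PBC livers, 2.12% ± 0.43 in PSC livers and 2.75% ± 0.60 in control livers (SD, n = 3, 3 and 4). Cox6b2, a form known from testis, reached 0.227% ± 0.129 of Cox6b1 in PBC livers, 0.379% ± 0.010 in PSC livers and 0.190% ± 0.083 in control livers. The minor forms Ndufa4l2, Cox4i2, Cox6a2 and Cox8b reached at most 0.0698% of Ndufa4, Cox4i1, Cox6a1 and Cox8a as a mean of any group, the highest being Cox4i2 in PSC livers. Cox8c and Cox7b2 had 0 reads in every liver, and Cox8b had 0 to 6 recovered reads per liver, so these 3 genes were not tested. Of 6 skeletal muscle markers, Acta1, Myh4 and Mb were at 0 in every liver, and the summed level of the list was 3.19 to 4.97 normalised reads in PBC livers, 0 to 10.3 in PSC livers and 0 to 5.11 in control livers. A list of 5 heart muscle markers summed to 44.4 to 109 in PBC livers, 46.9 to 123 in PSC livers and 86 to 169 in control livers. An exon of 26 members overlaps a gene on the opposite strand, and 11 members have a near-identical annotated transcript elsewhere, which makes their counts uncertain, because whether counting used strand is not stated in these sources. Atp5l, a complex V subunit, has the most such copies, 9.

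Markers of other cell types differed between the groups. Leukocyte markers summed to 16470 to 21098 normalised reads in PBC livers, 12459 to 16132 in PSC livers and 3920 to 7188 in control livers, with 5 of 5 called higher in PBC and 4 of 5 in PSC. Cholangiocyte markers summed to 10039 to 13538 in PBC livers, 53802 to 94714 in PSC livers and 7637 to 13149 in control livers, with 2 of 6 called higher in PBC and 5 of 6 in PSC. Most of each sum was Spp1, with a mean of 11209 in PBC livers, 75427 in PSC livers and 9081 in control livers. In PBC Epcam and Cftr had negative log2 fold changes against control, -0.67 and -0.44, and were not called. Neutrophil markers summed to 35428 to 107814 in PBC livers, 8645 to 15233 in PSC livers and 337 to 6195 in control livers, with 6 of 6 called higher in each model. Stellate cell and fibroblast markers summed to 15692 to 28992 in PBC livers, 52726 to 56778 in PSC livers and 13504 to 21647 in control livers, with 3 of 6 called higher in PBC and 4 of 6 in PSC. Hepatocyte markers, which include albumin and transferrin, summed to 11469000 to 16480000 in PBC livers, 8324680 to 9697850 in PSC livers and 10529000 to 11382400 in control livers, with 1 of 8 called higher in PBC and 1 of 8 called lower in PSC. In bulk tissue, fewer cells of a type and less RNA per cell cannot be told apart, and the part of these shifts in the values below was not tested.

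Most of the 81 genes were high or low in the same livers within each group. They took 1.93%, 1.58% and 2.22% of the normalised reads in PBC 7, 8 and 9, 1.90%, 2.39% and 2.35% in PSC 11, 13 and 14, and 2.25%, 1.76%, 2.85% and 2.35% in controls 1 to 4. The groups overlapped, since control 2 lay below PBC 7, PBC 9 and every PSC liver. PBC 8 was the lowest liver of all and control 3 the highest. By single genes, 68 of 81 were lowest in PBC 8 and 47 of 81 were highest in control 3, and the highest liver of a gene was typically 2.34 times its lowest (median). Against the mean of each gene over the 10 livers, the median deviation on the log2 scale was 0.14, -0.65 and 0.26 in PBC 7, 8 and 9, -0.20, 0.11 and 0.20 in PSC 11, 13 and 14, and -0.02, -0.32, 0.50 and -0.01 in controls 1 to 4.

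**Figure D1:**
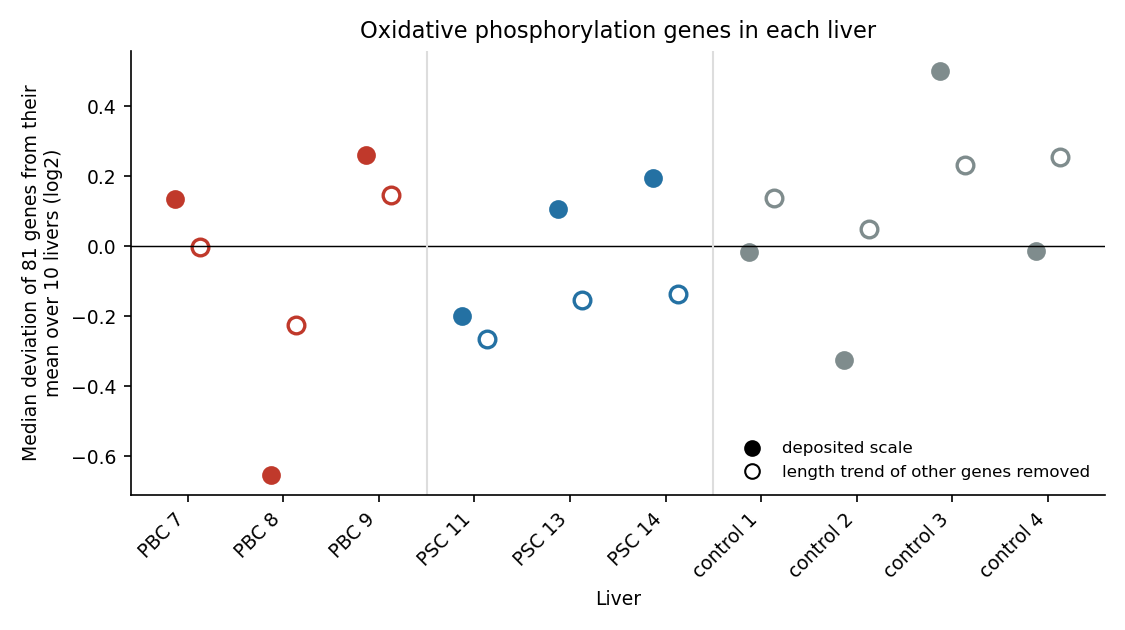
Median deviation (log2) of the 81 oxidative phosphorylation genes from their own mean over the 10 livers, for each liver, with PBC in red, PSC in blue and control in grey. Filled points use the deposited scale, on which PBC 8 is lowest at -0.65 and control 3 highest at 0.50; open points have the length trend of all other genes removed, after which the 3 PSC livers, at -0.26, -0.15 and -0.14, lie below the 4 control livers, at 0.05 to 0.25.

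These genes have short transcripts, and in PBC 8, control 2 and control 3 other short genes deviated in the same direction. The median transcript of the members has 758 bases, against 2754.5 bases over all tested genes with a transcript length, and 58.0% of members have at most 900 bases, against 5.10% of other genes. Among 179 other genes of at most 600 bases, the median deviation was 0.23, -0.57 and 0.15 in PBC 7, 8 and 9, 0.09, 0.37 and 0.43 in PSC 11, 13 and 14, and -0.20, -0.45, 0.47 and -0.35 in controls 1 to 4. Among genes over 4000 bases it was 0.50 in PBC 8, -0.31 in PSC 14 and 0.24 in control 2, the opposite direction in each. Per the labels' protocols only RNA of a RIN above a set minimum was used, and the RIN of each liver is not given. Each comparison is therefore given on the deposited scale and, as an alternative chosen after the data were seen, with the trend of the other genes over transcript length subtracted from each liver. This subtraction also takes out any true difference that short genes share. The trend went partly with the groups. Per doubling of length, other genes changed by -0.11, -0.17 and -0.30 (log2) in PSC 11, 13 and 14. In controls 1 to 4 the slopes were 0.13, 0.24, -0.10 and 0.15, and in PBC 7, 8 and 9 they were -0.04, 0.29 and -0.10. The subtraction thus lowers short genes in PSC livers against most controls, and an effect of length and one of group cannot be told apart here.

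**Figure D2:**
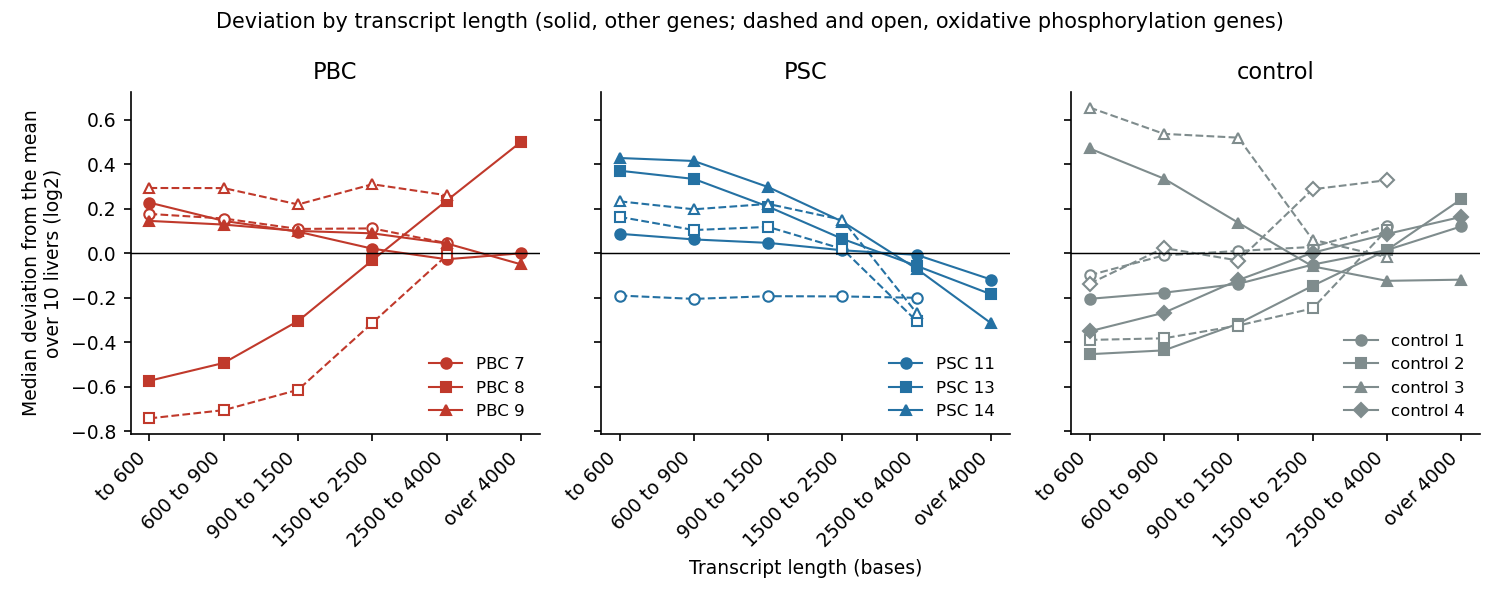
Median deviation (log2) from the mean over 10 livers in each class of transcript length (bases), by liver, for other genes (solid lines, filled points) and for the oxidative phosphorylation genes (dashed lines, open points). In PBC 8 the deviation of other genes runs between -0.57 in the shortest and 0.50 in the longest class. Members of up to 600 bases lie below other genes of that length in all 3 PSC livers, PBC 7 and PBC 8, and above them in PBC 9 and every control.

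The first comparison set the PBC model against untreated livers, and none of the 81 genes passed the test. On the deposited scale limma called 0 higher and 0 lower at an adjusted p under 0.05, while 7.6% of all 18390 tested genes were called higher and 2.34% lower. At an unadjusted p under 0.05 there was 1 gene, and edgeR on the recovered reads also called 0 (6.66% and 1.88% of all genes), as did DESeq2 (9.05% and 4.96%). No member had PBC values all above the controls or all below, against 12.7% and 6.89% of all tested genes. The median log2 fold change was -0.13 (median SE 0.27), against 0.01 for all tested genes, and 59 of 81 had a negative value. The sign of this median rested on single livers, as it was 0.18 without PBC 8, 0.03 without control 3 and 0.32 without both. For 68 of 81 genes the 95% interval of the change lay within 2-fold in either direction, and for 6 within 1.5-fold, which leaves changes under 2-fold undecided for most members.

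Complex by complex the summed levels overlapped, with genes placed by symbol, so that the sum of complex I holds Ndufa4. That of complex V holds Atp5sl and Atp5s, whose current symbols, Dmac2 and Dmac2l, do not name a subunit of the ATP synthase. Complex I summed to 637102 ± 191417 normalised reads in PBC livers, 697340 ± 98372 in PSC livers and 715945 ± 218847 in control livers (SD, n = 3, 3 and 4). Complex II summed to 121887 ± 24222 normalised reads in PBC livers, 123855 ± 11507 in PSC livers and 141206 ± 24250 in control livers. Complex V summed to 524856 ± 140135 normalised reads in PBC livers, 520433 ± 70984 in PSC livers and 544389 ± 97662 in control livers. Complexes III and IV overlapped in the same way. The gene with the smallest unadjusted p was Sdhd, the membrane anchor of complex II that helps to bind ubiquinone (GSMG0040736, mm10 chr9:50596338-50603849). Sdhd had 52754, 32730 and 46302 normalised reads in PBC 7, 8 and 9, against 61770, 44528, 72806 and 69156 in controls 1 to 4. The ranges overlapped through control 2, and the log2 fold change was -0.50 ± 0.23 (SE, adjusted p = 0.19, limma). Sdha, the flavoprotein that oxidises succinate in the same complex, ran the other way at 0.40 ± 0.22 (adjusted p = 0.26). Ndufa4l2, the hypoxia-induced relative of Ndufa4, had 9.95, 28.7 and 23.3 normalised reads in PBC livers, against 33.7, 39.8, 56.2 and 27.8 in control livers. Its ranges overlapped between PBC 8 and control 4, the log2 fold change was -0.97 ± 0.46 (adjusted p = 0.20), and it rests on 4 to 18 recovered reads per PBC liver and 20 to 31 per control liver. An exon of it overlaps Shmt2 on the opposite strand. Core subunits were not called either. The log2 fold changes were 0.12 for Ndufv1, which binds NADH, -0.24 for the Rieske iron-sulphur protein Uqcrfs1, and 0.18 and 0.06 for the ATP synthase α and β subunits Atp5a1 and Atp5b. With 1 liver left out, Ndufv1 ran between -0.08 and 0.36 and Uqcrfs1 between -0.37 and -0.11. In the same fits Atp5a1 ran between 0.04 and 0.34, Atp5b between -0.10 and 0.24, and Ndufs1 between -0.35 and -0.13. Atp5g1, which encodes part of the rotating c ring, was at 0.31 ± 0.29, and at 0.74 without PBC 8 (adjusted p = 0.031, limma), the 1 gene called higher in PBC in any fit that left out a single liver.

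The second comparison set the PSC model against untreated livers, and 1 of the 81 genes passed the test, the minor paralogue Cox6b2. Limma called 1 gene higher and 0 lower, while 8.25% of all tested genes were called higher and 6.48% lower. On the recovered reads edgeR called Cox6b2 higher and Ndufs1 lower (7.81% and 6.39% of all genes), as did DESeq2 (10.2% and 10.5%). At an unadjusted p under 0.05 there were 3 genes, 2 with PSC values all above the controls (15.9% of all tested genes) and 1 with PSC values all below (15.6%). The median log2 fold change was -0.02 (median SE 0.27), against 0.06 for all tested genes, and it ran between -0.12 and 0.13 with 1 liver left out. The 95% interval lay within 2-fold for 73 of 81 genes and within 1.5-fold for 11.

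Cox6b2 encodes an isoform of a cytochrome c oxidase subunit that joins the monomers of the enzyme, and is known from testis (GSMG0035445, mm10 chr7:4751794-4753094). It had 84.4, 108 and 127 normalised reads in PSC 11, 13 and 14, against 46.6, 46.2, 25.6 and 51.4 in controls 1 to 4. Every PSC liver was above every control, on 67 to 90 recovered reads per PSC liver and 10 to 37 per control liver. The log2 fold change was 1.33 ± 0.35 (SE, 95% interval 0.59 to 2.08, adjusted p = 0.022, limma). The call was lost without PSC 13 (1.31, adjusted p = 0.079), without PSC 14 (1.20, adjusted p = 0.12), with no filter on low values, with library totals set equal without the mitochondrial models, and with the length trend removed (0.86, adjusted p = 0.20). Its main counterpart Cox6b1 (GSMG0035754) had 29869, 38699 and 43078 normalised reads in PSC livers, against 31118, 21679, 41828 and 35021 in control livers. These overlapped, with a log2 fold change of 0.22 ± 0.30 (adjusted p = 0.66).

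Cox4i2, an oxygen-responsive form of subunit 4 known from lung (GSMG0021984), had 45.02, 35.6 and 102 normalised reads in PSC livers, against 15.5, 19.2, 28.1 and 27.8 in control livers. The groups did not overlap, but the spread within PSC was wide and the log2 fold change of 1.28 ± 0.53 did not pass (adjusted p = 0.12). Its counterpart Cox4i1 was at 0.26 ± 0.31 (adjusted p = 0.61). In PBC 7, 8 and 9 Cox4i2 had 44.8, 15.9 and 59.25, so that PBC 7 and PBC 9 also lay above every control, and it was not called there. Ndufs1 (GSMG0001653, mm10 chr1:63143585-63176822) had 4702, 4600 and 4835 normalised reads in PSC livers, against 6978, 6269, 5755 and 8998 in control livers. All 3 PSC livers lay below all 4 controls and close to each other, and the log2 fold change was -0.55 ± 0.18 (95% interval -0.94 to -0.16, adjusted p = 0.056, limma). It was called in edgeR (-0.60, adjusted p = 0.044) and in DESeq2 (-0.59, adjusted p = 0.017), each on the recovered reads, and its exons overlap Eef1b2 and Ino80dos on the opposite strand. The other named subunits did not pass the test. Complex II gave log2 fold changes of -0.22 for Sdha, 0.01 for the iron-sulphur subunit Sdhb, -0.19 for Sdhc and -0.24 for Sdhd. Complex III gave -0.08 and -0.11 for the core proteins Uqcrc1 and Uqcrc2 and 0.02 for Uqcrfs1. The complex IV subunits Cox5a, Cox5b, Cox6a1, Cox7a2 and Cox8a lay between -0.13 and 0.15, and Cox7a2l, placed with complex IV by its symbol, was at 0.41 ± 0.26 (adjusted p = 0.32). In complex V the values were -0.22 for Atp5a1, -0.02 for Atp5b, -0.05 for the γ subunit Atp5c1, and -0.04, 0.27 and -0.26 for the c-ring genes Atp5g1, Atp5g2 and Atp5g3.

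**Figure D3:**
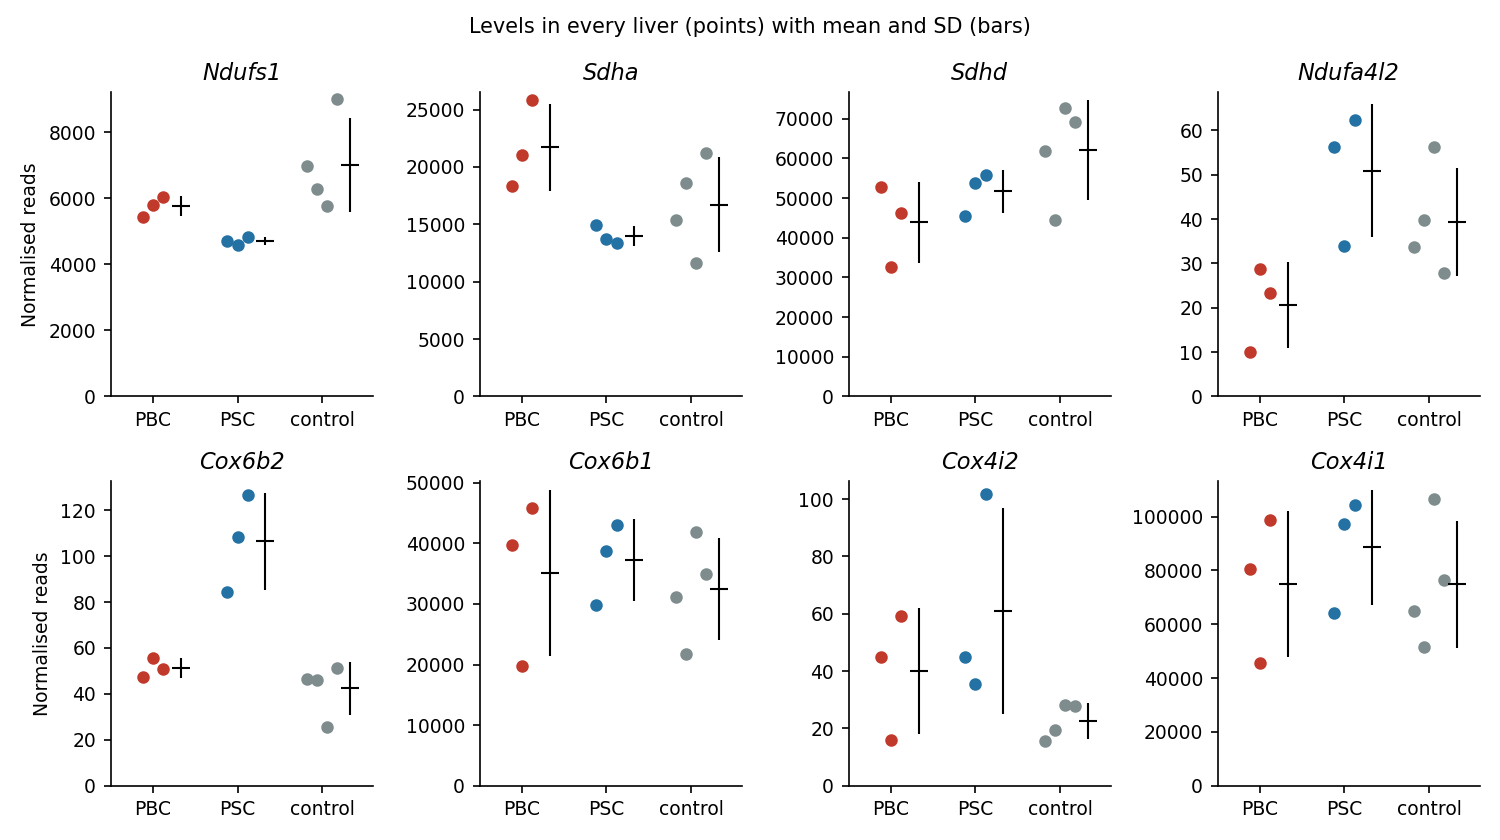
Normalised reads of 8 members in every liver (points), with the mean and SD of each group (bars) beside them, PBC in red, PSC in blue and control in grey, on linear axes that start at 0. Cox6b2 lies higher in the 3 PSC livers, at 84.4 to 127, than in any other liver, and Ndufs1 lies lowest there, at 4600 to 4835, while Cox6b1 and Cox4i1 overlap in all 3 groups.

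The third comparison set the 2 models against each other, and no member was called. Limma called 0 higher and 0 lower in PBC than in PSC, against 1.11% and 1.13% of all tested genes, with 5 members at an unadjusted p under 0.05, and edgeR (1.1% and 1.16% of all genes) and DESeq2 (3.21% and 3.39%) also called 0. The median log2 fold change was -0.16, against 0.02 for all tested genes. Its sign was not stable, as it was 0.15 without PBC 8, -0.31 without PBC 9 and 0.15 with the length trend removed, where 61 of 81 members were positive. The values of PBC and PSC did not overlap for 6 genes, 3 higher in PBC (14.6% of all tested genes) and 3 lower (12.6%). Sdha had 18308, 21047 and 25817 normalised reads in PBC livers, against 14920, 13683 and 13334 in PSC livers. All PBC values were above all PSC values, with a log2 fold change of 0.62 ± 0.23 (adjusted p = 0.18, limma). Atp5a1 and Ndufs1 were the other 2 higher in PBC, at 0.40 ± 0.24 and 0.29 ± 0.19 (adjusted p = 0.38 and 0.43). Lower in PBC were Cox6b2 at -1.02 ± 0.37 (adjusted p = 0.17), Ndufa4l2 at -1.34 ± 0.49 (adjusted p = 0.17) and Atp5s, named as a coupling factor of the ATP synthase, at -0.58 ± 0.23 (adjusted p = 0.20).

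With the length trend of the other genes removed, 25 of the 81 genes were lower in PSC livers than in control livers. The median SE of the members was 0.16, against 0.27 on the deposited scale. Of 81 members, 0 were called higher and 25 lower in PSC than in control (30.9%), against 11.8% and 9.76% of the 13830 genes with a transcript length, and 75 of 81 had a negative value, with a median of -0.34. In PBC against control 0 were called higher and 6 lower, against 9.73% and 7.01% of these genes, with a median of -0.21, so the share of members called lower there was close to that of all genes. That median ran between -0.29 without PBC 9 and -0.11 without PBC 8. Between PBC and PSC 0 were called in either direction, against 1.58% and 1.92%, so that a difference between the models was not shown. The PSC count depended on the livers in the fit, as it was 10 without PSC 11, 12 without PSC 13, 2 without PSC 14, 15 without control 1 and 18 to 31 without any other single liver. The count over all 13830 genes fell as well, from 1350 lower to 620, 765, 449 and 797 without PSC 11, PSC 13, PSC 14 and control 1 in turn. The PSC median moved less, between -0.37 and -0.28 over these 10 fits. The PBC count was 0 without PBC 9, where 171 of all genes were lower against 970 with every liver, and at most 5 without any other single liver.

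The 25 genes came from every complex: 10 of complex I, 1 of complex II, 3 of complex III, 6 of complex IV and 5 of complex V. Their log2 fold changes were between -0.45 and -0.99 after the subtraction, and between -0.55 and 0.03 on the deposited scale. In complex I they were Ndufs1 and the accessory subunits Ndufa1, Ndufa5, Ndufa6, Ndufb3, Ndufb5, Ndufb6, Ndufb9, Ndufb11 and Ndufc2, and in complex II Sdhd. In complex III they were Uqcrb, Uqcrh and Uqcr10, and in complex IV Cox5a, Cox6c, Cox7a1, Cox7a2, Cox7b and Cox7c. In complex V they were Atp5f1 of the peripheral stalk, Atp5g3 of the c ring, and Atp5h, Atp5j and Atp5k. Cox7c, a small complex IV subunit, shows the effect of the subtraction. On the deposited scale it had 3507, 4763 and 4256 normalised reads in PSC livers, against 4395, 3721, 6923 and 3844 in control livers, and the groups overlapped. With the trend removed it had 3249.8, 3664 and 3150.1 in PSC livers, against 5065, 5160.2, 5058 and 4897 in control livers, so that the groups no longer overlapped (log2 fold change -0.59, adjusted p = 0.0095, limma). The 6 genes called lower in PBC were Ndufb4, Ndufb6, Ndufc2, Sdhd, Atp5f1 and Atp5j. Ndufb6, an accessory subunit in the membrane arm of complex I, had 14575, 13139 and 13187 in PBC livers, against 19376, 19665, 21709 and 20112 in control livers with the trend removed (log2 fold change -0.57, adjusted p = 0.011). Both models shared these 4 controls. The hepatocyte marker list was also lower in PSC: its median against control was -0.56 with 4 of 8 called lower after the subtraction, and -0.29 with 1 of 8 on the deposited scale. Within it Cps1 and Trf ran the other way in PSC, at 0.57 and 0.52 after the subtraction. In PBC against control the list had a median of 0.17, with 2 of 8 called higher after the subtraction. Within it Hnf4a, Ttr and Apoa1 ran the other way in PBC, at -0.48, -0.32 and -0.01. The part of hepatocytes in the values of the members was not tested in either model.

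**Figure D4:**
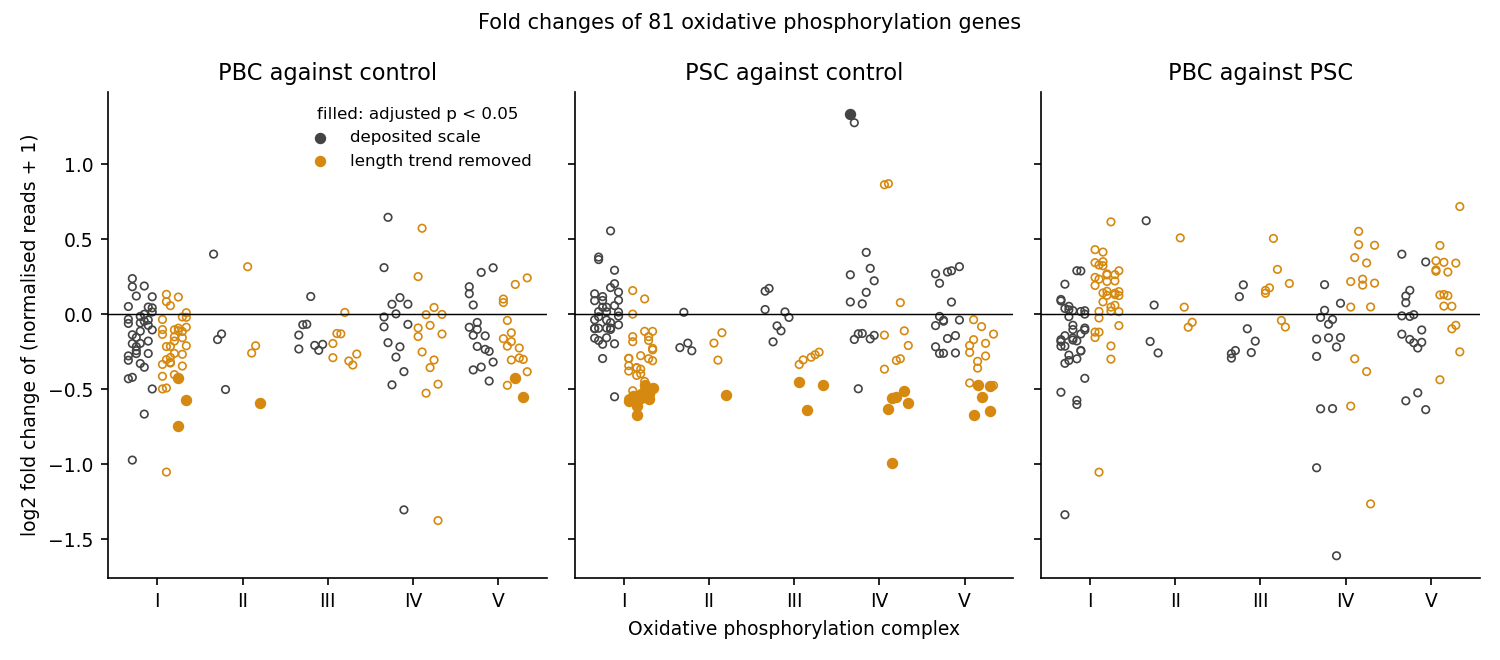
Log2 fold changes of the 81 genes by complex in the 3 comparisons, on the deposited scale (dark) and with the length trend removed (orange); filled points have an adjusted p under 0.05 in limma and each point is 1 gene. In PSC against control the 1 filled dark point is Cox6b2 at 1.33, and 25 orange points below 0 are filled.

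Among the genes that regulate or feed the chain, single genes were called in each model. Of 14 tested regulators of mitochondrial biogenesis, 0 were called in PBC and 2 were called lower in PSC. Over all tested genes limma called 7.6% higher and 2.34% lower in PBC, and 8.25% and 6.48% in PSC. Gabpa, the DNA-binding subunit of the factor GABP, which acts on many promoters of this system, had 389, 314 and 270 normalised reads in PSC livers, against 975, 973, 779 and 1127 in control livers. All PSC livers were below all controls, the log2 fold change was -1.57 ± 0.32 (adjusted p = 0.0070, limma), and the call held in each of the 10 fits without 1 liver (adjusted p at most 0.047). In PBC livers Gabpa had 475, 1200 and 402, with PBC 8 above every control (adjusted p = 0.23). Gabpa and the member Atp5j overlap on opposite strands, and Atp5j had 33290 to 41343 normalised reads in PSC livers and 35805 to 62683 in control livers. Ppargc1a, which encodes PGC-1α, had 77.8, 139 and 117 in PSC livers, against 421, 180, 250 and 335 in control livers. It was lower at -1.38 ± 0.41 (adjusted p = 0.041), but the call was lost in 6 of 10 fits without 1 liver, with adjusted p up to 0.16. It was also lost with equal library totals, with or without the mitochondrial models, with no filter and with the length trend removed (-0.98, adjusted p = 0.077).

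Of 18 citric acid cycle and pyruvate entry genes, 1 was called higher and 3 lower in PSC, and 1 higher and 1 lower in PBC, beside the shares of all tested genes given above. Pdha1, the catalytic subunit of pyruvate dehydrogenase, had 1819, 2373 and 2238 normalised reads in PSC livers, against 4070, 3789, 4161 and 4282 in control livers. The groups did not overlap, and the log2 fold change of -0.93 ± 0.20 (adjusted p = 0.0084) held without any single liver. Pdha1 was also lower in PBC at -0.69 ± 0.20 (adjusted p = 0.045), a call lost in 9 of 10 fits without 1 liver and in 5 of 10 other alternatives, edgeR among them. Its partners in the same enzyme complex were lower in PSC too, Pdhb at -0.61 ± 0.18 (adjusted p = 0.041) and Dlat at -0.60 ± 0.17 (adjusted p = 0.030), with calls lost in 7 and 5 of these fits. The Pdhb call was also lost with no filter, and that of Dlat with equal library totals and with the length trend removed (-0.42, adjusted p = 0.067). Pcx, which makes oxaloacetate from pyruvate, was higher in PSC at 0.77 ± 0.20 (adjusted p = 0.022, lost in 3 of 10 fits), and Ogdh, of the 2-oxoglutarate dehydrogenase complex, was higher in PBC at 0.83 ± 0.24 (adjusted p = 0.042, lost in 7 of 10 fits). The Ogdh call was also lost in 6 of 10 other alternatives, among them TMM scaling, edgeR and a fit of the 2 groups alone. Ucp2, an inner membrane carrier of the uncoupling protein family that is abundant in macrophages, had 5702, 5962 and 7734 in PBC livers, 5859, 4162 and 5510 in PSC livers, and 2984, 2278, 2077 and 4179 in control livers. It was higher in PBC at 1.21 ± 0.24 (adjusted p = 0.0078) and in PSC at 0.89 ± 0.24 (adjusted p = 0.029), the PBC call lost without PBC 9 and the PSC call in 5 of 10 fits and with equal library totals. Macrophage markers moved with it, summing to 90519 to 130310 in PBC livers, 71692 to 84650 in PSC livers and 24468 to 46188 in control livers, with 5 of 6 called higher in PBC and 4 of 6 in PSC, and their part in the result was not tested. Slc25a4, the ADP and ATP carrier of heart and muscle, was higher in PSC at 0.97 ± 0.28 (adjusted p = 0.035, lost in 6 of 10 fits and with equal library totals).

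On the deposited scale few other partners of the subunits were called, beside the shares of all tested genes given above. Of 14 assembly factors of complex I, 0 were called in any comparison. Of 35 assembly factors of complexes II to V, 1 was called, Sdhaf3 of complex II, which had 1030, 1182 and 872 normalised reads in PBC livers, against 1595, 1622, 2429 and 1790 in control livers (log2 fold change -0.84 ± 0.20, adjusted p = 0.020), lost without PBC 7 or PBC 9 and in a fit of the 2 groups alone. Of 18 genes of the outer membrane, protein import and cristae and 8 electron carriers and further subunits, 0 were called. With the length trend removed, the regulators called lower in PSC were Gabpa and Ppara, and of the citric acid cycle and pyruvate entry genes 4 were called lower and 1 higher in PSC, and 2 lower and 1 higher in PBC. The calls in the other lists of this paragraph were then all lower, beside 7.01% of all genes with a length called lower in PBC and 9.76% in PSC. Of the 8 electron carriers and further subunits, 3 were lower in PBC, namely Cycs (cytochrome c), Etfa and Usmg5, and 2 in PSC, namely Ndufab1 and Etfdh, and their medians were -0.45 in PBC and -0.37 in PSC. Of the complex I assembly factors 1 was lower in PBC, Ndufaf4, and of those of complexes II to V 4 were lower in PBC and 1 in PSC, each against control, and Sdhaf3 was lower in PBC than in PSC. Of the 18 outer membrane, import and cristae genes 2 were lower in PSC, Vdac1, an outer membrane channel, and Chchd3. The 13 unnamed mitochondrial gene models took 5.13% to 13.7% of the normalised reads, and 1 of them, which contains mt-Nd3, was called lower in PBC (-0.99 ± 0.29, adjusted p = 0.046, limma). Another model that contains mt-Nd3 was not called, with 3161, 922 and 4744 in PBC livers, against 3907, 7875, 2261 and 2224 in control livers. How the call depends on single livers is not given here.

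Promoters are described by the letters of 3 factors known to act on genes of this system. In windows of 250 bases before to 50 bases after the start of a gene, from RefSeq on GRCm38.p6, 69 members were matched. The letters searched, on both strands, were GCGCATGC for NRF1, CCGGAAG for GABPA and ATGGCGG for YY1. NRF1 letters were found in 14.5% of members and 3.05% of 27025 genes, GABPA letters in 23.2% and 9.93%, YY1 letters in 15.9% and 4.69%, and at least 1 of them in 44.9% and 15.8%. A match is a string of letters and not a shown binding site. The 150 bases before the start are given for 5 members, with a matched motif in capitals: Cox6b2, the 1 gene called on the deposited scale, beside its counterpart Cox6b1, and Sdhd, Ndufa6 and Atp5k, which were called lower in PSC with the length trend removed.
Cox6b2, chr7:4753095-4753244, minus strand: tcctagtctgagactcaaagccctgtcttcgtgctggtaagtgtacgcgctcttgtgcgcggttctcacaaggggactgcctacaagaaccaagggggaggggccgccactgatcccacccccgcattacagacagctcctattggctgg
Cox6b1, chr7:30626115-30626264, minus strand: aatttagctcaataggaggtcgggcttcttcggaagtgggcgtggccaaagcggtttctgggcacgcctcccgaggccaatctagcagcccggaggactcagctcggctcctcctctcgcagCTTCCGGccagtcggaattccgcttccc
Sdhd, chr9:50603850-50603999, minus strand: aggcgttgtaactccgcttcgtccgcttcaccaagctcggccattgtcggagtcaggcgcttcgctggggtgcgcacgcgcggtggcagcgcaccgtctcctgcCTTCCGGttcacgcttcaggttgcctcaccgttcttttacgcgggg
Ndufa6, chr15:82354292-82354441, minus strand: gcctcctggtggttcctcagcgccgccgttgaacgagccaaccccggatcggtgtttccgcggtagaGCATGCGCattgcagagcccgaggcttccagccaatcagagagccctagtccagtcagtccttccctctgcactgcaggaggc
Atp5k, chr5:108434400-108434549, minus strand: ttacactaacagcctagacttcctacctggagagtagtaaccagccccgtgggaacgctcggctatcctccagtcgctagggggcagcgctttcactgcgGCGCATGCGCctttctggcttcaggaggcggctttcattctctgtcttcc
Cox6b1 and Sdhd hold the GABPA letters, beginning at -28 and -46 from the start, Ndufa6 holds the NRF1 letters at -83, and Atp5k holds NRF1 letters on both strands, overlapping by 6 bases, and GABPA letters after the start, outside the stretch shown. The window of Cox6b2 holds none of the 3 strings. Neither do those of many other genes called lower in PSC with the length trend removed, namely Ndufb3, Ndufb11, Ndufc2, Uqcr10, Cox5a, Cox7a1, Cox7a2, Cox7b, Cox7c, Atp5f1 and Atp5g3. The genes shown with a match therefore do not stand for all of those called lower, and a link between these letters and the changes was not tested.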

How the data were processed

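STAR 2.4.0, FastQC, Picard, SAMtools, DESeq2 and the build mm10 are named in the submitters' processing notes, and per the file headers the gene models are those of FASTDB. Which tool counted reads, and whether by strand, is not given in the sources used here. Values are a deposited signal, namely reads of each gene model that the authors normalised with DESeq2. All values checked, up to 200 reads, were whole multiples of 1 step per library (100%, tolerance 0.1), so reads were recovered by division. The main test was limma (3.58.1, R 4.3.3) with an intensity trend on log2(value + 1), all 10 libraries in one fit, on the 18390 genes with at least 10 normalised reads in at least 3 libraries, with Benjamini-Hochberg adjustment over all of them at 0.05. Fold changes on this scale understate those of low genes. edgeR 4.0.16 and DESeq2 1.42.0 on recovered reads were alternatives. Simulated data were used to test the scripts.

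Transcript length is that of the shortest principal protein-coding transcript in GENCODE. A near-identical copy is an annotated transcript with at least 95% identity over at least 50% of the length. For the length subtraction, a lowess curve (span 0.3) of each gene's deviation from its mean on log2 length, fitted on genes other than the members, was subtracted in each library. Named genes are a fixed set of subunits, the called members, the called genes of each list with the smallest adjusted p and the members below the filter, while the genes called with the length trend removed, and Pdhb, Ldha and Vegfa, were named after their values were seen. One gene of the fixed set is not reported here. The members and lists were chosen with earlier results of these data known. A p-value here reflects variation among single livers.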

Additional observations from a re-analysis of the deposited data

How the results depend on the processing

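No paired analysis was possible because the groups share no replicate number. On the deposited scale the count of members called higher in PBC was 0, and 3 without control 3 and PBC 8; the count called lower was 0, and 1 with totals equal without the mitochondrial models, where the 1 gene was Sdhd (adjusted p = 0.040, limma). The median there was -0.13, and 0.32 without control 3 and PBC 8. In PSC the count higher was 1; it was 0 with totals equal without the mitochondrial models, with no filter and with the length trend removed, 5 with quality weights and 4 without control 3 and PBC 8. The count lower was 0; it was 1, Ndufs1, with DESeq2, edgeR, TMM scaling, a filter at 50, genes with a transcript length alone, quality weights, and without control 3 and PBC 8, and 25 with the length trend removed. In PBC against PSC the count lower was 0, and 1 with quality weights. Leaving out each replicate in turn gave 0 to 1 higher in PBC, and 0 to 1 higher and 0 to 1 lower in PSC.

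With the length trend removed, the count lower in PBC was 6, beside 970 of all 13830 genes with a length (counts over all these genes follow in brackets). It was 1 in a fit of the 2 groups alone (406), 12 with quality weights (2076), 3 without control 3 and PBC 8 (1773), and 0 to 5 with each replicate left out (171 to 1749). The count lower in PSC was 25 (1350), 41 with quality weights (2820) and 2 to 31 with each replicate left out (449 to 1764). It was 10 without PSC 11 (620), 12 without PSC 13 (765), 2 without PSC 14 (449) and 15 without control 1 (797). The count higher in PSC was 0 (1633), and 1 with quality weights (3082). The count higher in PBC than in PSC was 0 (219), 6 with quality weights (679), 4 without control 3 and PBC 8 (320), and 0 to 1 with each replicate left out (83 to 276).

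Over all tested genes the counts higher and lower were 1398 and 430 in PBC, 1518 and 1192 in PSC, and 204 and 208 in PBC against PSC. They moved by over 1.5 times with quality weights (2425 and 1803; 3899 and 3404; 658 and 701), with DESeq2 (913 lower in PBC, 1929 lower in PSC, 590 and 623 between the models), in fits of the 2 groups alone (752 and 89 in PBC, 1853 lower in PSC), with equal library totals (853 higher in PBC, 669 lower in PSC, 128 higher between the models) with totals equal without the mitochondrial models (821, 767 and 132), without control 3 and PBC 8 (1741 lower in PBC, 2443 and 2226 in PSC, 340 lower between the models) and with the length trend removed (970 lower in PBC, on the 13830 genes with a length). The share of higher calls was 76.5% in PBC; it was 64.6% with DESeq2, 63.4% with totals equal without the mitochondrial models, 58.1% with the length trend removed, 57.4% with quality weights, 54.4% without control 3 and PBC 8, 89.4% in the fit of 2 groups, and 53.6% to 91.3% with each replicate left out. In PSC it was 56.0%, and 50.2% to 73.9% with each replicate left out. Between the models it was 49.5%, 36.0% and 37.0% with the 2 settings of equal totals, and 40.1% to 58.4% with each replicate left out. With each replicate left out the counts ran over 684 to 1818 and 65 to 1574 in PBC, 711 to 1915 and 251 to 1899 in PSC, and 59 to 261 and 42 to 301 between the models. The cause of these shifts was not tested. Depth limits Cox6b2, Cox4i2, Ndufa4l2, Cox6a2 and Cox8b, which had at most 90 recovered reads per liver.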

Other observations

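Targets of the hypoxia-inducible factors, a list of 14 genes that respond to low oxygen, moved in both directions: 1 was called higher and 2 lower in PBC, and 3 higher and 2 lower in PSC (limma, adjusted p under 0.05). Over all tested genes 7.6% were called higher and 2.34% lower in PBC, and 8.25% and 6.48% in PSC. Pdk1, a kinase that inactivates pyruvate dehydrogenase, had 859, 1254 and 1228 normalised reads in PSC livers, against 3991, 2569, 8093 and 6395 in control livers. The groups did not overlap, and the log2 fold change of -2.13 ± 0.38 (SE, n = 3 and 4, adjusted p = 0.0029, limma) held without any single liver. In PBC livers Pdk1 had 1201, 2828 and 1352, with a log2 fold change of -1.53 ± 0.38 (adjusted p = 0.023, limma) that was lost without PBC 7, PBC 9 or control 3 and in a fit of the 2 groups alone. Hilpda, a lipid droplet protein, had 2385, 2229 and 3203 in PSC livers, against 530, 590, 1333 and 362 in control livers. All PSC values were above all control values, and the log2 fold change of 2.04 ± 0.34 (adjusted p = 0.0021, limma) held without any single liver.

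Slc2a1, a glucose transporter, was higher in PBC at 0.84 ± 0.23 (adjusted p = 0.037, limma) and in PSC at 0.92 ± 0.23 (adjusted p = 0.019, limma), with calls lost in 9 and 3 of 10 fits without 1 liver and in 5 and 2 of 10 other alternatives. Ldha, which makes lactate from pyruvate, was higher in PSC at 0.76 ± 0.21 and Vegfa, a growth factor for blood vessels, was lower at -0.70 ± 0.22 (adjusted p = 0.031 and 0.046, limma), calls lost in 5 and 8 of these fits and in 2 and 4 of the other alternatives, and that of Ldha also with the length trend removed (adjusted p = 0.073, limma). Bnip3, a mitochondrial outer membrane protein linked to mitophagy, was lower in PBC at -1.07 ± 0.27 (adjusted p = 0.028, limma), a call lost without PBC 9, control 3 or control 4 and in a fit of the 2 groups alone. Leukocyte, cholangiocyte and hepatocyte markers moved between the same groups, and their part in these values was not tested.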
